A study of Mus musculus with 6 samples.

Results

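Dense clusters of distal open regions were examined in ATAC-seq peak lists from mouse hematopoietic stem cells (HSCs). ATAC-seq uses the transposase Tn5, which cuts and tags DNA where chromatin is open, and a peak caller then lists the stretches with many cuts. The lists came from 3 libraries labelled Dek_cKO, from Dek fl/fl,Tie2-Cre mice, and 3 labelled Dek_fl, from Dek fl/fl mice without Cre. All mice were C57BL/6, 12 weeks old and in the resting state, and both groups carried loxP sites in Dek. Tie2-Cre expresses Cre recombinase from control DNA of Tek in blood and endothelial cells. About 20000 bone marrow cells were sorted for each library as Lin-Sca-1+c-Kit+ cells that were also CD48- and CD150+. The design text speaks of duplicates where the labels name 3 libraries in each group. No source says that the replicates are different mice, so a p-value here reflects only library-to-library spread, part or all of which may be technical.

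Peaks of the 6 lists were merged into 84592 regions on chromosomes 1 to 19 and X, of which 47491 were called in all 4 lists of replicates 1 and 2. Of these, 33876 were distal, meaning more than 1 kb from either annotated end of a protein-coding gene. Distal regions with gaps of at most 12.5 kb between them were joined, which gave 21990 groups, most of them single regions. The dense clusters were the 274 groups with 6 or more regions. They held 2015 regions, 5.95% of the distal regions called in the 4 lists and 2.38% of all merged regions. At the limit of the rule stood 272 groups of 5 regions, just outside, and 109 groups of 6 regions, just inside. The members were chosen by the peak calls of replicates 1 and 2, so cluster number, size and density are descriptions with no test.

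Enhancers are stretches of DNA, often far from the gene they act on, where transcription factors bind and chromatin is open. Genes that define a cell type often have many enhancers within one domain. Groups with strong acetylation or Mediator signal are known as super-enhancers, a term not used here because neither mark was measured. In HSCs such domains are known at genes of the ETS, RUNX, GATA and TAL1 families of transcription factors, which act together to keep the cells undifferentiated.

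Most members were remote from annotated starts, and their own sequence was not read here because no genome of this build was used. Of the 2015 members, 131 (6.50%) held an annotated transcript start, against 6.49% of all distal regions. These members held 157 start windows of 130 genes, of which 79 windows were internal starts of protein-coding genes and 78 were starts of long noncoding RNAs. All 9 of these windows that lie in clusters at the listed genes described below are shown, with or without a motif match. Each runs 5′ to 3′ on its own strand to 50 bases past the start (RefSeq, GRCm38.p6). Capitals mark the letters AGATAA, the site of factors of the GATA family, GGAAGT, that of ETS factors, TGTGGT, that of RUNX factors, TGANTCA, that of AP-1, CAGCTG, an E-box of the kind that helix-loop-helix factors bind, and AGGGGGC, from the core of the CTCF motif. Both strands were searched. None of these marked stretches overlap one another. The windows are Erg on the minus strand (chr16:95459299-95459598), Elf1 on the plus strand (chr14:79515424-79515723), Nfix on the minus strand (chr8:84775779-84776078), the noncoding gene G430095P16Rik inside the Nfix cluster on the plus strand (chr8:84722807-84723106), Slamf7 on the minus strand in the cluster that also reaches Cd48 (chr1:171648950-171649249), and Foxp1 on the minus strand (chr6:99266466-99266765). The last 3 are noncoding genes on the minus strand, Gm35035 in the cluster near Dusp6 (chr10:99460625-99460924) and Gm36496 (chr12:25190795-25191094) and Gm36441 (chr12:25209552-25209851) in the cluster near Id2.
Erg: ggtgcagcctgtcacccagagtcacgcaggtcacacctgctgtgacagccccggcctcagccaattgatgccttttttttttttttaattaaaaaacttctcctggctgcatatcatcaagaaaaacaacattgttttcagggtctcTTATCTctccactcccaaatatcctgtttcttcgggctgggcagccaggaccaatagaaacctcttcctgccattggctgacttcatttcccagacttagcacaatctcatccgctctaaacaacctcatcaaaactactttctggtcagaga
Elf1: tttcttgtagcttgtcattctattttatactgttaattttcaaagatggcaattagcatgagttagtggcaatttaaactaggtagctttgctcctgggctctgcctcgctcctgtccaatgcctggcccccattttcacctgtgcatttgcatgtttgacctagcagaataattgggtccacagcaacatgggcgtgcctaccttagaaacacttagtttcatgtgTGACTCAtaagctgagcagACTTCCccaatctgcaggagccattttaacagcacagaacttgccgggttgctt
Nfix: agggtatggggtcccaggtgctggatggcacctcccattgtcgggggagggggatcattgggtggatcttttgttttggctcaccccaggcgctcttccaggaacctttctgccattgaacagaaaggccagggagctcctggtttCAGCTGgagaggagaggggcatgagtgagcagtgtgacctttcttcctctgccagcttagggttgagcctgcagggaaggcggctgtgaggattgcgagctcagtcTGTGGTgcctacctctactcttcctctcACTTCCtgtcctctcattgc
G430095P16Rik: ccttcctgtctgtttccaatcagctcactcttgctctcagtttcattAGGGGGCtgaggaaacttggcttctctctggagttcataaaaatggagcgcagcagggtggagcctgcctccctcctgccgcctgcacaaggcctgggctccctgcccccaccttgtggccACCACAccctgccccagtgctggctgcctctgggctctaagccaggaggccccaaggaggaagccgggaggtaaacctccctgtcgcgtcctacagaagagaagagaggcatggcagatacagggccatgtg
Slamf7: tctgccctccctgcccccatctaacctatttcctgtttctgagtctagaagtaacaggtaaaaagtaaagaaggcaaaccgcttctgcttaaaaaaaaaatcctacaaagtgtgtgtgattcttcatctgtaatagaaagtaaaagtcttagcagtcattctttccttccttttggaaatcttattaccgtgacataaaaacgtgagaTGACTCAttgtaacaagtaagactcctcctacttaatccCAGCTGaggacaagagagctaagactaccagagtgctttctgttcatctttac
Foxp1: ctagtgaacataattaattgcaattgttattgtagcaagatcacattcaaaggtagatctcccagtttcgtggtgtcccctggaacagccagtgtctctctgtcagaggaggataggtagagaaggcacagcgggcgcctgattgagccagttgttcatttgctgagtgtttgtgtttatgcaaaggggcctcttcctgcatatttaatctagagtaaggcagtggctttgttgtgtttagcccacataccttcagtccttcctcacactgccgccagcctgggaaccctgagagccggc
Gm35035: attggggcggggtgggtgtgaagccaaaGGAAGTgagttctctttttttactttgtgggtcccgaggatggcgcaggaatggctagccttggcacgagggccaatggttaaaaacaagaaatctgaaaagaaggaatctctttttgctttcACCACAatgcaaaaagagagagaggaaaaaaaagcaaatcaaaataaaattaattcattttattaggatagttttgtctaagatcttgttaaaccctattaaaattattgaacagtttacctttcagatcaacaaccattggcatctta
Gm36496: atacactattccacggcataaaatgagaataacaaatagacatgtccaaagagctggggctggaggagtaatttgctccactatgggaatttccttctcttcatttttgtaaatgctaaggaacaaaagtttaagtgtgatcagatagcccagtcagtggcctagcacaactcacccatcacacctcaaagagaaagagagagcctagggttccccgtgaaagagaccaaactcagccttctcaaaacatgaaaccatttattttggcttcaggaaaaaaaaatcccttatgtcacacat
Gm36441: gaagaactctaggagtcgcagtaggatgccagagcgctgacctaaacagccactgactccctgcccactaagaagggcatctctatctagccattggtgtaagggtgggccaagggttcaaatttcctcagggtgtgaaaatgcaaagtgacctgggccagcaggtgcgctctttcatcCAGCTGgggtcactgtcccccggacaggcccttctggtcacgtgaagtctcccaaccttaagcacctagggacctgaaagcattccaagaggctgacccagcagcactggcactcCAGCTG

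The Erg window held the GATA letters, in reverse complement. The Elf1 window held an AP-1 and an ETS match, the Nfix window an E-box, a RUNX and an ETS match, the G430095P16Rik window a CTCF core and a RUNX match, and the Slamf7 window an AP-1 and an E-box match. Gm35035 had an ETS and a RUNX match and Gm36441 a pair of E-boxes, whereas the Foxp1 and Gm36496 windows held none of the 6 motifs. Such short strings are common: among 32619 start windows of the same length, 11.2% held the GATA letters, 23.9% the ETS, 16.6% the RUNX, 7.85% the AP-1, 16.4% the E-box and 10.7% the CTCF letters. Among the 157 windows whose start lay in a member, 8.92% held the GATA letters, 26.8% the ETS, 21.0% the RUNX, 10.2% the AP-1, 19.1% the E-box and 15.3% the CTCF letters. A match describes letters and not a bound site. The member windows had a median of 7 CpG, 13 at protein-coding and 5 at lncRNA starts, against 12 in other distal regions, 22 in gene-end regions called in the 4 lists and 7 over all annotated starts.

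The clusters spanned between 21.2 and 120 kb, with a median of 45.7 kb, and together covered 13.3 Mb. The open regions filled a median of 19.6% of a span, and the gap between neighbours had a median of 5940 bp. In all, 116 clusters lay within one protein-coding gene, 99 held a gene end in their span and 59 lay outside genes. Of those outside, 17 were more than 50 kb from the nearest gene. Chromosome 2 had the most clusters, 28, and the X chromosome had 0, although 471 distal regions of the 4 lists lay there and the largest X group held 5.

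**Figure D1:**
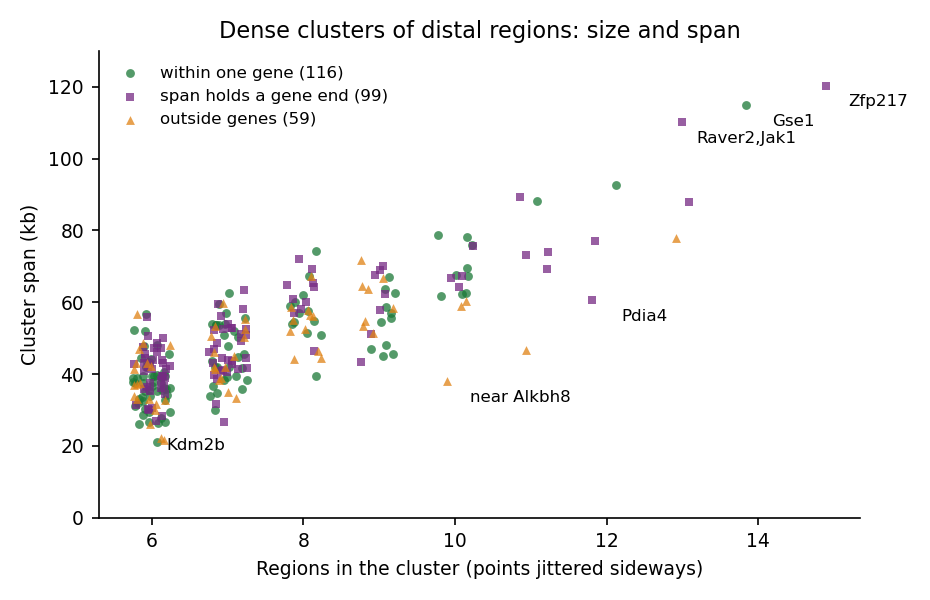
Number of regions in each of the 274 dense clusters (horizontal axis, jittered) against its span in kb (vertical axis), coloured and shaped by placement relative to protein-coding genes. Spans lengthen with the number of regions up to the Zfp217 cluster at 120 kb. The cluster near Alkbh8, a stretch at the start of chromosome 9 with no call in either replicate 3 list, holds 10 regions in 38.0 kb.

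The largest cluster held 15 regions over 120 kb at Zfp217, a zinc finger transcriptional regulator (chr2:170147277-170267562). Its column 7 sum, the sum over regions of the deposited fold of the summit over the local background, was 70.4 and 81.0 in Dek_cKO replicates 1 and 2, against 62.9 and 67.5 in Dek_fl replicates 1 and 2. Next came 14 regions within Gse1 (chr8:120322684-120437606), where the sums were 59.6 and 66.0 in Dek_cKO and 49.4 and 54.9 in Dek_fl. A cluster of 13 regions reached over Raver2, an RNA-binding protein gene, and Jak1, the kinase of cytokine receptors (chr4:101145432-101255692). Its sums were 61.7 and 63.6 in Dek_cKO and 50.4 and 51.9 in Dek_fl. In each of these 3 clusters both Dek_cKO sums lay above both Dek_fl sums, and the lists as a whole differed in the same way, as given below for all members.

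Clusters of 13 regions also lay at Snx30, a sorting nexin gene, and near Cxxc5, which encodes a CXXC zinc finger protein. Clusters of 12 lay within Sgms1, a sphingomyelin synthase gene, over Arhgef10 and Kbtbd11, and at Pdia4, a protein disulfide isomerase of the endoplasmic reticulum. The Pdia4 cluster (chr6:47739346-47799896) packed its 12 regions into 60.6 kb, and its sums of 75.6 and 84.6 in Dek_cKO and 65.8 and 66.2 in Dek_fl exceeded those of the Zfp217 cluster in 3 of the 4 libraries. Of the 6 clusters of 11 regions, the 2 with the longest spans lay at Tgm2, a transglutaminase gene, and within Elmo1, whose product activates Rac for cell movement and engulfment. The most tightly packed cluster in these lists lay within Kdm2b, a histone demethylase gene, with 6 regions in 21.2 kb.

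Of 51 transcription factor genes listed for HSCs, 9 lay in a dense cluster or were the gene nearest to one, namely Tal1, Erg, Fli1, Zfpm1, Nfix, Fosb, Elf1, Ets1 and Id2. Of 30 signalling regulators, 8 did so, namely Socs3, Foxp1, Ccnd2, Ccnd3, Dusp6, Zfp36l2, Smad3 and Smad7. Of 29 receptors and surface proteins, Cd48 alone did. These shares were 17.6%, 26.7% and 3.45%, against 293 of 21627 protein-coding genes (1.35%). Long genes have more room for a cluster: genes tied to one had a median length of 65.8 kb, against 17.3 kb over all protein-coding genes, and 3.42% of the genes of at least 44.9 kb were tied. Among listed genes of that length, 6 of 26 listed transcription factors and 3 of 13 signalling regulators were tied. The lists were not tested for enrichment, and nearness does not show which gene a region acts on.

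Among the ETS factors, which bind GGAA-type sites, Fli1 and Ets1 had neighbouring clusters on chromosome 9, with 8 regions (chr9:32477973-32531804) and 7 regions (chr9:32667238-32721153). Erg, an ETS factor needed for HSC self-renewal, had 6 regions in 27.9 kb inside the gene (chr16:95432243-95460125), and the last of them held the internal start printed above. Elf1 had 9. Tal1, the basic helix-loop-helix factor that sets up blood formation, shared 8 regions over 64.7 kb with its neighbours Stil and Pdzk1ip1 (chr4:115037836-115102552). Zfpm1, which encodes the GATA cofactor FOG-1, had 10, as did Nfix, a nuclear factor I gene used for HSC survival. Fosb, an AP-1 subunit, had 6, and Id2, an inhibitor of helix-loop-helix factors, was the gene nearest to 8 regions 60.6 kb away.

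Among the signalling regulators, Socs3, an inhibitor of JAK-STAT signalling, lay with Pgs1 in a cluster of 10. The cell cycle genes Ccnd3 and Ccnd2, both D-type cyclins, had 6 regions each, those of Ccnd2 lying 87.1 kb from the gene. Dusp6, a phosphatase of ERK kinases, was nearest to 10 regions that lay 142 kb off. The TGF-beta effector Smad3 and its inhibitor Smad7 had 6 each, the forkhead factor Foxp1 had 9, and Zfp36l2, whose product promotes decay of mRNAs, was nearest to 7. Cd48 encodes a SLAM-family surface protein whose absence is used in the sort, and with Slamf7 it lay in a cluster of 7 (chr1:171648430-171699667).

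The deposited fold and the read pileup put the classes of distal regions, by number of neighbours, in opposite orders. By fold, ranked within each list over the 47491 regions so that 100 is the highest, members had a median percentile of 29.6 and 32.6 in Dek_cKO replicates 1 and 2 and of 36.0 and 29.1 in Dek_fl replicates 1 and 2. Regions in groups of 2 to 5 had medians of 39.6 and 40.2 in Dek_cKO and 40.5 and 40.3 in Dek_fl, and single distal regions had 53.0 and 52.1 in Dek_cKO and 46.9 and 54.0 in Dek_fl. The more neighbours a region had, the lower its fold ranked, in each of the 4 libraries.

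The number of reads over each summit and its local background could be recovered, because the fold is the ratio of the 2 and the −log10 p-value is the Poisson tail of the one given the other. In replicates 1 and 2, whole reads matched the deposited −log10 p-value within 0.001 for at least 99.9% of peaks. Ranked by this summit pileup, members had median percentiles of 52.8 and 53.0 in Dek_cKO and 53.9 and 53.8 in Dek_fl. Groups of 2 to 5 had 43.3 and 43.6 in Dek_cKO and 43.3 and 43.4 in Dek_fl, and single regions had 33.2 and 33.7 in Dek_cKO and 33.2 and 33.0 in Dek_fl. The order of the classes was thus turned round, in each of the 4 libraries. Ranked by the deposited −log10 p-value, the classes lay closer together. Members then had median percentiles of 42.6 and 44.2 in Dek_cKO and 45.0 and 43.5 in Dek_fl. Groups of 2 to 5 had 41.0 and 41.3 in Dek_cKO and 41.6 and 41.1 in Dek_fl. Single regions had 40.6 and 40.6 in Dek_cKO and 39.3 and 40.3 in Dek_fl.

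**Figure D2:**
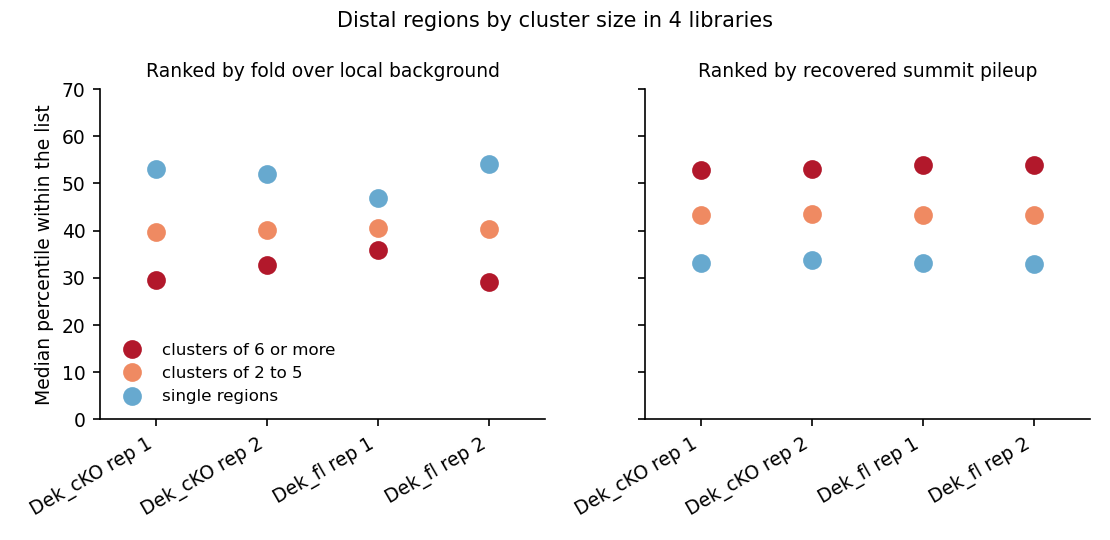
Median percentile of distal regions within each list (vertical axis) for the 2 Dek_cKO and the 2 Dek_fl libraries of replicates 1 and 2, ranked by deposited fold (left) and by recovered summit pileup (right). Clusters of 6 or more lie lowest on the left in every library and highest on the right.

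Median summit pileups of members were 76 and 66 reads in Dek_cKO and 41 and 88 reads in Dek_fl, whereas single regions had 53 and 46 reads in Dek_cKO and 29 and 60 reads in Dek_fl. Median local backgrounds of members were 14.8 and 11.5 reads in Dek_cKO and 9.09 and 19.4 reads in Dek_fl, against 7.05 and 5.597 reads for single regions in Dek_cKO and 5.30 and 8.95 reads in Dek_fl. Members therefore had more reads at the summit and, by a larger factor, more reads around it. Which reads made up that background was not tested.

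The Erg cluster ranked 274 of 274 by mean fold percentile, and 59 of the 273 that could be ranked by pileup. Median summit pileups of its 6 regions were 91 and 72.5 reads in Dek_cKO and 48 and 107 reads in Dek_fl, over median backgrounds of 29.8 and 22.9 reads in Dek_cKO and 17.9 and 39.6 reads in Dek_fl. At the region that holds the internal start, the pileup was 110 and 83 reads in Dek_cKO and 54 and 137 reads in Dek_fl, with folds of 4.09 and 3.88 in Dek_cKO and 3.12 and 3.75 in Dek_fl. Of the 6 regions it had the second highest mean fold percentile. The Fli1 cluster ranked 273 by fold and 158 by pileup.

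The Fosb cluster had rank 271 by fold and rank 3 by pileup, on median pileups of 175 and 157.5 reads in Dek_cKO and 77 and 181.5 reads in Dek_fl. The cluster near Zfp36l2 ranked 250 by fold and 2 by pileup, with medians of 153 and 136 reads in Dek_cKO and 78 and 164 reads in Dek_fl. Rank 1 by pileup belonged to a cluster over Adgrg1 and Adgrg3 (210 by fold), which was singled out after its values were seen. Adgrg1 encodes GPR56, an adhesion receptor known from HSCs.

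The other clusters at listed transcription factors stood nearer the middle of the pileup order. The Tal1 cluster ranked 66 by pileup, Ets1 105, Elf1 111, Nfix 147, Zfpm1 150 and the cluster near Id2 172. In the Tal1 cluster the region of highest mean pileup percentile (85.9) stood 25.6 kb from its start, with 173 and 157 reads in Dek_cKO and 108 and 215 reads in Dek_fl. At 14.9 kb a narrow region of 464 bp had 107 and 88 reads in Dek_cKO and 62 and 127 reads in Dek_fl, yet folds of 2.58 and 2.79 in Dek_cKO and 2.83 and 2.53 in Dek_fl, over backgrounds of 40.9 and 30.9 reads in Dek_cKO and 21.3 and 49.6 reads in Dek_fl. Among signalling regulators, Ccnd3 ranked 10 and Smad3 15 by pileup, whereas Foxp1 ranked 217 and the cluster near Dusp6 245.

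Clusters that stood high by fold did not have to fall by pileup. The highest mean fold percentile, 70.6, belonged to 6 regions near Chd2, a chromatin remodeller gene, which also ranked 5 by pileup. It was followed by clusters at Cnnm2 and Nt5c2, at Mcur1, within Snx29 and near Enah, with means between 63.1 and 68.1. The cluster at Slamf7 and Cd48 stood at the other end of the pileup order, 273 of 273, with median pileups of 40 and 34 reads in Dek_cKO and 20 and 51 reads in Dek_fl. By fold it ranked 131. Within its 7 regions the mean fold percentile ran between 7.42 and 89.2, and across all clusters the median spread within a cluster, an SD of 22.8, was close to the SD of 25.7 over all distal regions.

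**Figure D3:**
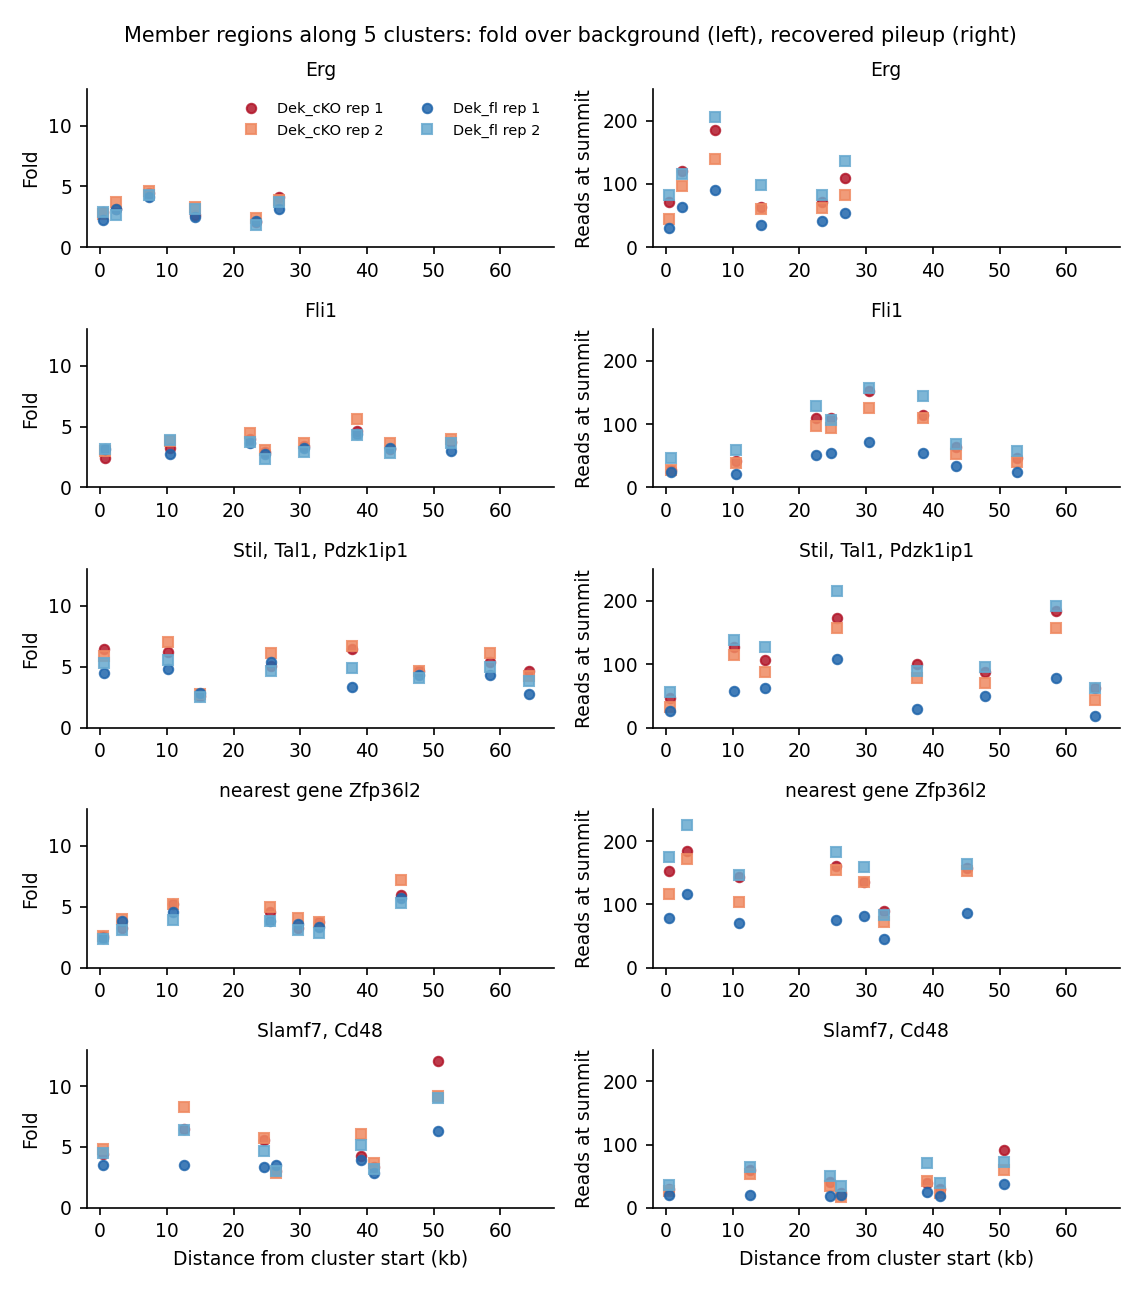
Fold over the local background (left column) and recovered summit pileup in reads (right column) of each member against distance from the cluster start in kb, for the clusters at Erg, at Fli1, at Stil, Tal1 and Pdzk1ip1, near Zfp36l2 and at Slamf7 and Cd48. Colours mark the 2 Dek_cKO and the 2 Dek_fl libraries; Erg regions have folds under 5 but pileups up to 205 reads, and Slamf7 and Cd48 regions reach higher folds on pileups of at most 91 reads.

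Replicate 3 of each group was not used to choose the members. Its lists were made with another score and a stricter limit, and are shorter, with 27167 peaks in Dek_cKO and 23809 in Dek_fl. Members were called in 968 of 2015 cases (48.0%) in Dek_cKO replicate 3 and in 873 cases (43.3%) in Dek_fl replicate 3, where the background over all distal regions of the 4 lists was 39.0% in Dek_cKO and 33.9% in Dek_fl. Among distal regions outside dense clusters the shares were 38.4% in Dek_cKO and 33.3% in Dek_fl. With 1 library a group in this batch there is no test of these shares, and a region not called is not shown to be closed.

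Whether members were recalled more often than other regions of like strength depended on the measure of strength. Among regions with a mean percentile up to 25 by fold, 31.2% of members were called in Dek_cKO replicate 3, against 12.8% of single regions, and 25.1% against 8.85% in Dek_fl replicate 3. Up to percentile 25 by pileup the shares were 13.3% of members and 11.3% of single regions in Dek_cKO, and 8.67% and 6.38% in Dek_fl. Between percentiles 50 and 75 by pileup, members were called in 61.0% and single regions in 66.2% of cases in Dek_cKO, and in 54.5% and 60.3% in Dek_fl. Members thus had the higher share in all 4 ranges by fold, whereas by pileup the classes lay within 6 points of each other in all 4 ranges. By pileup, members had the highest share of the classes in the lowest range and the lowest share in each higher range, in both lists.

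**Figure D4:**
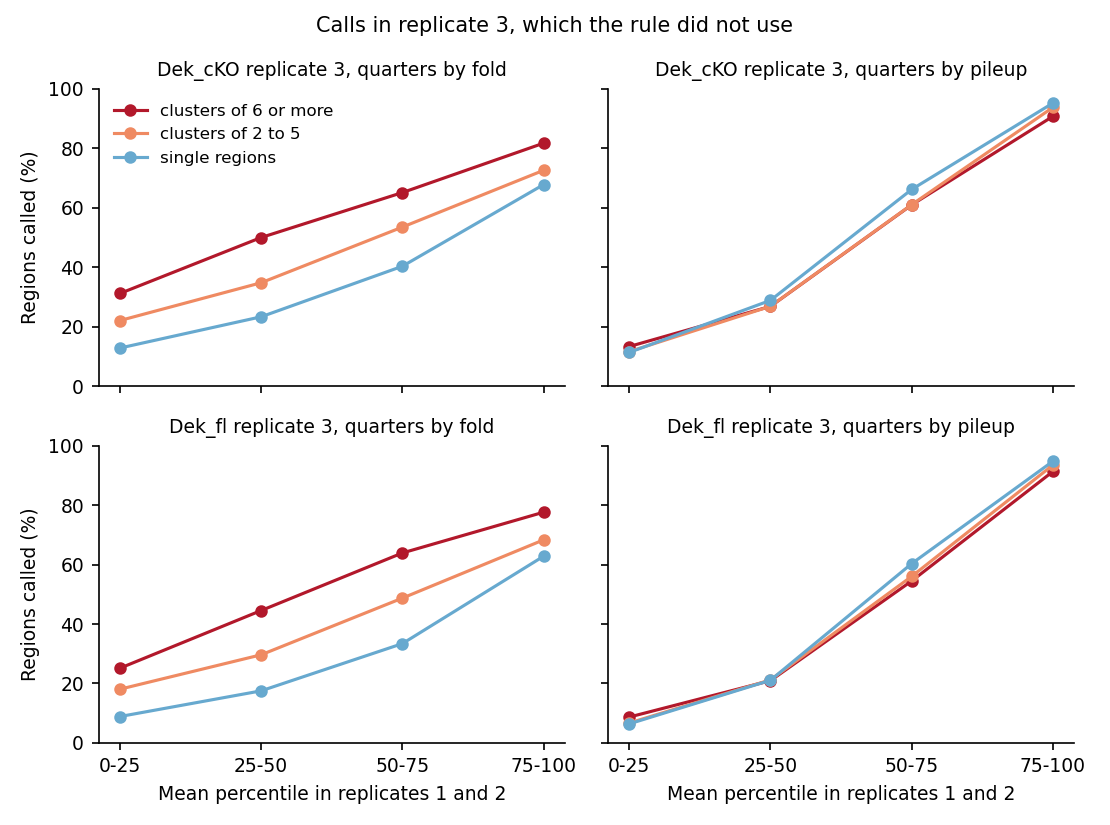
Percent of distal regions called in replicate 3 (vertical axis), for Dek_cKO (top) and Dek_fl (bottom), in 4 ranges of the mean percentile in replicates 1 and 2 ranked by fold (left) or by summit pileup (right), for clusters of 6 or more, groups of 2 to 5 and single regions. In the lowest range by fold 31.2% of members and 12.8% of single regions were called in Dek_cKO. By pileup the lines lie close together, with members lowest above the first range.

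By cluster, all regions were called in Dek_cKO replicate 3 at Pxn, which encodes the adhesion protein paxillin, at Gm46963 and near Chd2. In Dek_fl replicate 3 all were called at Rsbn1l and Plekha2. No region was called in either list at Serinc2 and in a stretch at the start of chromosome 9 whose nearest gene is Alkbh8, 297 kb away (chr9:3000270-3038229). In that stretch 2 of the 10 regions had a recoverable pileup, with medians of 470.5 and 362.5 reads in Dek_cKO replicates 1 and 2 and 447 and 608.5 reads in Dek_fl replicates 1 and 2. The stretch was therefore left out of the ranking by pileup. Without it there were 273 clusters and 2005 regions. The Slamf7 and Cd48 cluster had 0 regions called in Dek_cKO replicate 3 and 1 in Dek_fl replicate 3, whereas the cluster near Zfp36l2 had 6 of 7 in both. In the Pdia4 cluster, the region of highest mean fold percentile (99.8) was called in neither list. Its region of highest recovered mean pileup percentile (99.9) was called in Dek_fl replicate 3 only, on 33 reads. The regions 39.4 and 49.2 kb from the start of that cluster were called in both lists.

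Among clusters at listed transcription factors, each of the replicate 3 lists called 3 of 8 regions at Tal1, 3 of 8 at Fli1, 2 of 6 at Erg, 3 of 9 at Elf1, 4 of 7 at Ets1 and 4 of 10 at Nfix. Fosb had 4 of 6 regions called in Dek_cKO and 3 in Dek_fl, the cluster near Id2 5 of 8 in Dek_cKO and 4 in Dek_fl, and Zfpm1 2 of 10 in Dek_cKO and 4 in Dek_fl. Among signalling regulators, Smad3 and Ccnd3 had 5 of 6 regions called in each list, and Foxp1 had 5 of 9 in Dek_cKO and 2 in Dek_fl. The numbers for the 2 groups were equal or within 3 regions of each other at every one of these clusters.

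The comparison of Dek_cKO with Dek_fl asked whether loss of DEK, a chromatin protein that binds DNA and histones, goes with a change at these clusters. No dense cluster passed the test in either direction. The peak at a Tek gene end, from whose control DNA the Tie2-Cre transgene is built, had −log10 p-values of 32.9, 20.5 and 8.59 in the libraries labelled Dek_cKO and of 260, 576 and 56.6 in those labelled Dek_fl. A second peak in the Tek gene was called in 0 Dek_cKO and 3 Dek_fl lists. The stronger Tek signal therefore stood in the libraries labelled as lacking the transgene, and each direction given here is between libraries as labelled. The peak at a Dek gene end was called in all 6 lists and does not show the deletion. Among 10 stem and progenitor genes, 9, 9 and 6 had a gene-end peak in Dek_cKO lists and 9, 10 and 3 in Dek_fl lists. Among 10 endothelial genes the numbers were 8, 9 and 4 in Dek_cKO and 8, 8 and 4 in Dek_fl, and among 10 B cell genes 7, 7 and 1 in Dek_cKO and 3, 7 and 0 in Dek_fl. The members of these lists with such a peak in 0 of the 6 libraries were Cdh5 (endothelial) and Ms4a1, Vpreb1 and Rag1 (B cell), so most listed genes of both cell types had one in at least 1 library. Such peaks also stood at genes of unrelated tissues: among 10 non-blood genes the numbers were 4, 4 and 0 in Dek_cKO and 2, 5 and 0 in Dek_fl. Among 10 T and NK cell genes they were 5, 6 and 2 in Dek_cKO and 4, 5 and 1 in Dek_fl. A gene-end peak alone therefore does not show that a cell type was present. The part of other cells in the results was not tested, and fewer cells of a type cannot be told apart from less opening per cell.

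Sums of column 7 over all members were 10366 and 11438 in Dek_cKO replicates 1 and 2, against 8631 and 9338 in Dek_fl replicates 1 and 2. Both Dek_cKO libraries were higher, by 0.28 on the log2 scale, with an SD between replicates of 0.09. The fold is set within each list, and as a share of the list's own sum over the 47491 regions the values were 3.48% and 3.54% in Dek_cKO and 3.65% and 3.49% in Dek_fl. These shares overlapped, and their log2 ratio of -0.026 was smaller than the SD of 0.035 between replicates. With 2 libraries a group no exact test of these sums can pass the threshold.

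Each region was then given a rank score, the normal score of the rank of its fold within a list, and the groups were compared with limma over all 47491 regions. At an adjusted p under 0.05, 0 regions were higher and 0 lower in Dek_cKO (0.0% of all regions in each direction), at members as elsewhere. At an unadjusted p under 0.05, 1163 regions were higher (2.45%) and 567 lower (1.19%), among them 20 members higher (0.993%) and 24 lower (1.19%). Over all members, 858 had a positive and 1157 a negative difference, with a median of -0.06. Over all 47491 regions, 22223 had a positive difference, with a median of -0.03. With 1 library left out the members' median changed in size and sign: it was -0.01 without Dek_cKO replicate 1, -0.10 without Dek_cKO replicate 2, 0.05 without Dek_fl replicate 1 and -0.17 without Dek_fl replicate 2.

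Taken as clusters, 0 of 21990 groups passed in either direction (0.0% each), and at an unadjusted p under 0.05 there were 589 higher (2.68%) and 219 lower (0.996%), none of them dense. Of the dense clusters, 62.8% had a negative difference, against 46.9% of all groups, with medians of -0.044 and 0.022. Without Dek_fl replicate 1 these medians were 0.046 and -0.017, and without Dek_fl replicate 2 they were -0.12 and 0.067. This lean was not tested. Differences of the 274 dense clusters ran between -0.48 and 0.33, with a median SE of 0.28, and all 274 lay within 2 SE of 0. These SE were drawn towards the spread of all groups, 15079 of them single regions. Neither this count nor the absence of dense clusters at the unadjusted p therefore says much about them. In a fit of dense clusters alone, on ranks of their column 7 sums, 3 were higher and 4 lower at an unadjusted p under 0.05 (limma). None of the 274 passed after adjustment. With the replicate number as a block, 5 regions were higher (0.0105%) and 3 lower (0.00632%), among them 0 members. With this block 2 groups of any size were higher (0.0091%) and 0 lower, among them 0 dense clusters. On simulated data of the region test, 0% of regions with planted shifts of 1, 2 or 3 in rank score were called. With a shift of 4 it was 65.5%. The spreads in this simulation were drawn from estimates made at each region on 2 libraries a group. Such estimates are noisy, so the simulated spreads were more uneven than those of the real fit. Which size of difference the real test could have detected at single regions is therefore not known. The cluster test was not tried on simulated data.

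**Figure D5:**
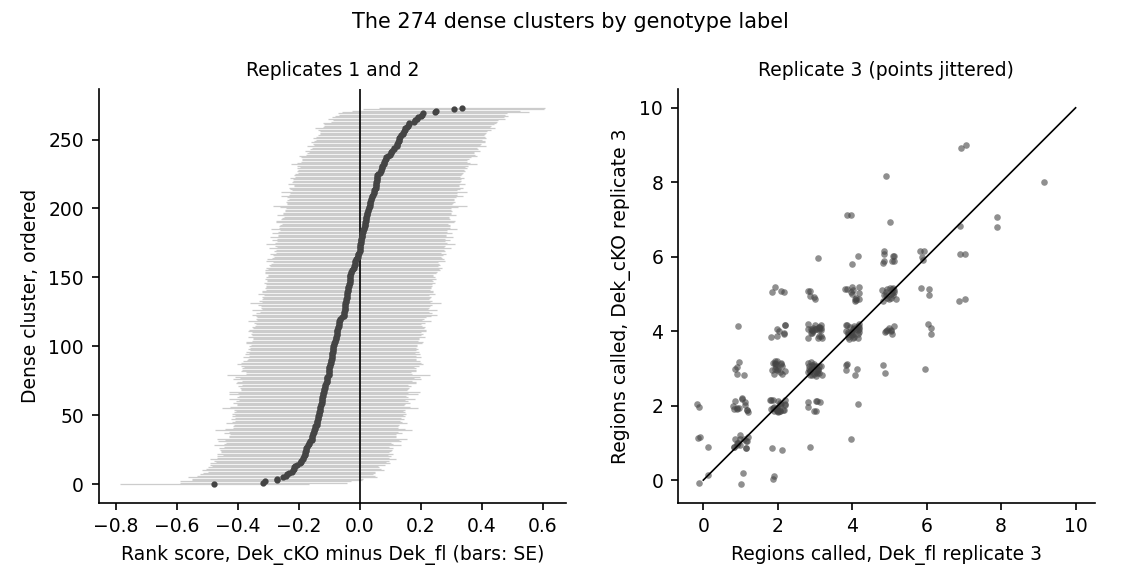
Left, difference in mean rank score, Dek_cKO minus Dek_fl, of each of the 274 dense clusters (points, with SE bars), ordered by value. Right, number of regions called per cluster in Dek_cKO replicate 3 (vertical) against Dek_fl replicate 3 (horizontal), with the line of equality. Differences on the left run between -0.48 and 0.33, and on the right 112 clusters lie above the line and 45 below.

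The dense clusters with the smallest p-values are given by value, since none passed. Within Map3k20, a stress kinase gene, the mean rank scores were -0.27 and -0.22 in Dek_cKO and -0.54 and -0.63 in Dek_fl. Both Dek_cKO libraries lay above both Dek_fl libraries, and the difference was 0.33 with an SE of 0.27 (limma, adjusted p = 0.9999). The clusters at Agpat3, a lipid acyltransferase gene, and at Ilrun followed with 0.31 (SE 0.30) and 0.25 (SE 0.28). Agpat3 was at 0.06 without Dek_fl replicate 1 and 0.56 without Dek_fl replicate 2, and Ilrun at 0.14 without Dek_cKO replicate 2. At the low end, the cluster within Pcdh7, a protocadherin gene, had scores of -0.73 and -0.83 in Dek_cKO and 0.001 and -0.60 in Dek_fl, a difference of -0.48 with an SE of 0.31 (limma, adjusted p = 0.9999). The clusters near Dlx2, a homeobox gene, and near Mef2a, a MADS-box factor gene, had differences of -0.32 (SE 0.27) and -0.31 (SE 0.28). Without Dek_fl replicate 1, Pcdh7 was at -0.18 and the cluster near Mef2a at -0.17, and without Dek_fl replicate 2 Pcdh7 was at -0.78.

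Replicate 3 gave no common direction for these clusters. Over the few regions called in both of its lists, the difference was 0.39 at Map3k20 (1 region) and -0.22 at Pcdh7 (1 region), of the same sign as in replicates 1 and 2. It was -0.38 at Ilrun (1 region), of the opposite sign, 0.004 near Dlx2 (3 regions), -0.003 at Agpat3 (4 regions) and 0.05 near Mef2a (4 regions). Over the 761 members called in both replicate 3 lists, 410 (53.9%) ranked higher in Dek_cKO, against 49.1% of the 19683 regions called in all 6 lists.

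Calls in replicate 3 were more frequent in Dek_cKO at members and elsewhere. Of the members, 207 (10.3%) were called in Dek_cKO only and 112 (5.56%) in Dek_fl only, beside 9.77% and 4.72% of all distal regions of the 4 lists. In terms of clusters, 112 had more regions called in Dek_cKO, 45 had more in Dek_fl and 117 had equal numbers. Sgms1 was among the exceptions, with 3 of 12 regions called in Dek_cKO and 6 in Dek_fl, and Il1r1, an interleukin receptor gene, had 4 of 8 in Dek_cKO and 1 in Dek_fl. These last 2 were picked for their differences and have no test.

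When dense clusters were built from each list alone, their number followed the length of the list. There were 1105, 1237 and 37 in the Dek_cKO lists, against 392, 1217 and 19 in the Dek_fl lists, and the groups overlapped, with replicate 3 far below replicates 1 and 2 in both. Within each replicate number Dek_cKO had more, in 3 of 3 pairs, with a mean log2 ratio of 0.83 (two-sided exact permutation test within pairs, p = 0.25, the smallest p that 3 pairs allow). The unpaired log2 ratio of the means was 0.55 (two-sided exact permutation test over 3 against 3 libraries, p = 0.7, where 0.1 is the smallest p possible), with 0.54 within replicates 1 and 2 and 0.96 within replicate 3. It became -0.02 without Dek_fl replicate 3, 0.07 without Dek_cKO replicate 2, 1.11 without Dek_cKO replicate 3 and 1.95 without Dek_fl replicate 2. With the lists cut to an equal length of 23809 peaks the numbers were 5, 11 and 18 in Dek_cKO and 7, 9 and 19 in Dek_fl, a log2 ratio of -0.04 (exact permutation test, p = 1). Dek_cKO then had more in 1 of 3 pairs, with a mean log2 ratio of -0.09 within pairs (exact permutation test, p = 0.75). With 1 library left out, the unpaired ratio at equal length lay between -0.54 without Dek_cKO replicate 3 and 0.50 without Dek_fl replicate 3. It was 0.31 without Dek_cKO replicate 1, -0.30 without Dek_fl replicate 1 and -0.20 without Dek_fl replicate 2.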

How the data were processed

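ATAC-seq peak lists of 6 libraries were used, grouped by the labels. For each library the authors deposited its own peak list. The submitters' processing notes name Bowtie2, Picard, MACS2 and the build mm10. Versions, settings and any Tn5 shift are not analysed here, as no source gives them. Each peak has a deposited score, a fold (a ratio of summit pileup over local background), a −log10 p-value and a −log10 q-value. In replicates 1 and 2 this score equals 10 times −log10 q, and in replicate 3 it equals 10 times −log10 p. Replicate 3 was thus a processing batch of its own that holds both groups, whereas the score does not set replicates 1 and 2 apart. The fold is the authors' own and was used to describe and rank peaks within a list. Depth is unknown; the commonest recovered background was 5.81, 4.60 and 0.76 reads in Dek_cKO and 5.03, 7.19 and 1.01 reads in Dek_fl replicates 1, 2 and 3.

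Regions, distal classes and clusters were made as described above from the RefSeq gene table of GRCm38.p6 (49550 genes, 21627 protein-coding), which has no exons or strand, in Python 3.11.15. A region counted as called with at least 1 bp of a peak, and its highest peak gave its values. Summit pileup and background were recovered from the fold, read as pileup plus 1 over background plus 1, and the Poisson p. Rank scores were compared with limma 3.58.1 in R 4.3.3 (Benjamini-Hochberg over all regions or groups, threshold 0.05). Same-numbered libraries deviated together, with correlations of 0.27, 0.52 and 0.74 for replicates 1, 2 and 3, which paired them by the rule used. Dek_cKO replicate 1 nevertheless deviated more with Dek_fl replicate 2 (0.57), and Dek_fl replicate 1 more with Dek_cKO replicate 2 (0.31). The pairing of replicates 1 and 2 is therefore weakly founded. The region test was tried on simulated data whose spreads were more uneven than those of the real fit. The sequence letters of members were planned to be searched but are not analysed here for want of a genome.

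Clusters are named by the protein-coding genes in their span or else the nearest one. Named are the 10 with the most regions (ties, as among the 6 clusters of 11, by longer span), the 5 of highest mean fold percentile, the 3 of smallest p per direction, and those at listed genes; others were chosen after their values were seen. The members, gene lists and tests were chosen with earlier results of these data known. Alternatives covered thresholds, overlap, gaps, libraries, ranks and the replicate block; those with recovered pileups, without annotated starts, without the chromosome 9 stretch and from single lists, paired or not, were added after seeing the data.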

Additional observations from a re-analysis of the deposited data

How the results depend on the processing

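The number of dense clusters depended on the choices behind it. It was 22 (140 regions) with peaks of −log10 q of at least 10, 145 (1007) with lists cut to equal length, 59 (393) where peaks had to cover at least 0.5 of a region in each list, and 2 (12) where all 6 lists had to call a region. A gap of at most 5 kb gave 11 (69), a gap of at most 25 kb 1032 (8686), and a minimum of 8 regions 90 (836). With 1 of the 4 libraries left out it lay between 287 and 646 (2119 to 5002 regions), highest without Dek_fl replicate 1, the shortest of the 4 lists. Gene ends at 2.5 kb gave 219, regions with no annotated start 203, and leaving out the chromosome 9 stretch 273.

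No member and no dense cluster passed the rank test in any alternative run. Over all regions, the replicate block called 5 higher and 3 lower, and 2 groups higher; the 6 libraries with the block called 1 region higher, and with 1 library left out the range was 0 to 1. Agpat3 turned to -0.037 and Pcdh7 to 0.035 under the q limit, and Ilrun to -0.14 over 6 libraries, with and without the block. The difference in clusters from single lists turned to -0.042 at equal length and ranged between -0.021 and 1.95 with a library left out; with the replicate block it was 0.83. The summed fold difference became -0.026 as a share of the list. The cause of these changes was not tested. Unknown depth limits the calls in replicate 3.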
